A study of Mus musculus with 5 samples.

Results

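Transcripts of 10 immediate early genes of the AP-1 and Egr families were followed in sorted hair follicle stem cells of mouse skin at postnatal day 75. The genes were chosen by symbol: Fos, Fosb, Fosl1, Fosl2, Jun, Junb, Jund, Atf3, Egr1 and Egr2. All 10 stood among the 55357 genes of the deposited table and among the 15665 genes with enough reads to test. Polycomb repressive complex PRC1 ubiquitinates histone H2A through its catalytic subunits Ring1a and Ring1b. For PRC1 i2KO, 3 libraries were made from mice of the genotype K15-CrePR1:Ring1a-/-, Ring1bflox/flox, in which a keratin 15 promoter drives a Cre recombinase that RU-486 activates. The 2 Control libraries came from Ring1a-/-, Ring1bflox/flox mice without that Cre, so Ring1a was missing from both groups, and loss of Ring1b and presence of Cre cannot be told apart. Skin of both groups received 1% RU-486 each day for 10 days from postnatal day 50 and was taken 15 days after the last treatment. Epidermal cells were freed with 0.25% trypsin for 1 hour at 37 °C and gated on CD34 and high α6-integrin among cells with EpCAM and without Sca1. Libraries are called by group and by the number in their titles, and the labels leave unstated whether each is a different animal, so the p-values cover the spread among these libraries, which may be only technical.

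AP-1 is a pair of leucine zipper proteins, 1 of the Jun family with 1 of the Fos or Atf families, or of 2 Jun proteins, that binds DNA at the AP-1 site. Egr proteins are zinc finger factors that bind GC-rich DNA. Many genes of both families, though not all, are switched on within minutes of a stimulus, without new protein synthesis. Serum response factor, its Elk partners and CREB, which MAP kinases activate, switch them on. In skin, genes of these families are known for their response to growth factors, wounding and enzymatic dissociation of the tissue. They are also known for roles in keratinocyte differentiation.

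The labelled cell type was checked first. Summed over 10 bulge markers, among them Cd34, Krt15 and Lgr5, the level was 4955, 5129 and 6927 CPM (counts scaled to library size) in PRC1 i2KO replicates 1, 2 and 3, and 21361 and 20324 CPM in Control replicates 1 and 3. No bulge marker was at 0 in all libraries, 7 of the 10 fell and none rose, against 15.1% and 18.8% of all tested genes. Cd34, whose protein was used for the sort, stood at 11.0, 12.3 and 37.2 CPM in PRC1 i2KO and at 1548 and 1697 CPM in Control. Summed levels of 8 sebaceous gland markers were 2625 to 3317 CPM in PRC1 i2KO and 242 to 252 CPM in Control, and those of 6 markers of cycling cells were 420 to 601 CPM and 42.9 to 54.5 CPM. In bulk RNA, fewer cells of a type and less RNA per cell cannot be told apart. Total estimated reads were 9675996 to 21102727 in PRC1 i2KO and 8270419 and 32463173 in Control, and each member had at least 743 reads in every library.

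The promoters of 5 members are shown because their transcripts were the most abundant of the set (Fos, Fosb) or were higher in all PRC1 i2KO libraries than in both Control libraries (Junb, Fosl2, Egr2). Each window runs from 250 bases before to 50 bases after the transcription start, read 5′ to 3′ on the gene's strand, from RefSeq on GRCm38.p6; the reads were placed on mm39, so these positions do not carry over. The windows lie at chr12:85473640-85473939 (plus strand) for Fos, chr7:19309996-19310295 (minus) for Fosb, chr8:84978699-84978998 (minus) for Junb, chr5:32136222-32136521 (plus) for Fosl2 and chr10:67535249-67535548 (plus) for Egr2, which has 5 starts in the table, of which the most upstream is shown. Capitals mark every match, on either strand, to 1 of 6 motifs: AP-1 (TGANTCA), the full CRE (TGACGTCA), the CRE half-site (TGACG), the CArG box of serum response factor, the Egr site (GCGNGGGCG) and TATAAA.
Fos: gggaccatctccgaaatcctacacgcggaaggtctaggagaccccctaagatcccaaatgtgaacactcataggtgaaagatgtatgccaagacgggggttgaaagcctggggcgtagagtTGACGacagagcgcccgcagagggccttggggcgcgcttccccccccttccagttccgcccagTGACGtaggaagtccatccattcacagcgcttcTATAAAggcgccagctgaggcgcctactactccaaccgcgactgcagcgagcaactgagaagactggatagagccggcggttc
Fosb: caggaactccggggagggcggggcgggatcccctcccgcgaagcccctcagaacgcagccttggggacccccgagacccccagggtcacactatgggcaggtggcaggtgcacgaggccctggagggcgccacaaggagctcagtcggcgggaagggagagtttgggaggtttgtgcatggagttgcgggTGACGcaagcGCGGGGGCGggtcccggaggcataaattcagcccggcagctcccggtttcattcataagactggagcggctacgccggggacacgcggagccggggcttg
Junb: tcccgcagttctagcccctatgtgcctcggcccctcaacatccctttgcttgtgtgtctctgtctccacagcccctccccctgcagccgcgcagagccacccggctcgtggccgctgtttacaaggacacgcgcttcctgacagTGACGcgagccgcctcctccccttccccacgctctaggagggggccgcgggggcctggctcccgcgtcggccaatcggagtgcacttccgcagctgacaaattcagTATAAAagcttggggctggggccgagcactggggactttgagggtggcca
Fosl2: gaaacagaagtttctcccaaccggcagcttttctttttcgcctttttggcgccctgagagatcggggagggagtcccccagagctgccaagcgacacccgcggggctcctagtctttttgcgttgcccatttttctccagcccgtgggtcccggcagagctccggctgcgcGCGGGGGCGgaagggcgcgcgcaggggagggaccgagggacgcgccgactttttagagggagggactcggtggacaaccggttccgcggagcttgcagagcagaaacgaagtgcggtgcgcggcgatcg
Egr2: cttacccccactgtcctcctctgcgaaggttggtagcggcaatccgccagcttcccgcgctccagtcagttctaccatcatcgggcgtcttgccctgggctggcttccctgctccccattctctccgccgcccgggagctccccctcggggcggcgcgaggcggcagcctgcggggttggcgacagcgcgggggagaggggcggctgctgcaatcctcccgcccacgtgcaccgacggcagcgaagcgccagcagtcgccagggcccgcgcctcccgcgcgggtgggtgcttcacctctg

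Fos carried 2 CRE half-sites, at -129 and -66, and TATAAA at -33. Fosb carried a CRE half-site at -60 and an Egr site at -50, Fosl2 an Egr site at -79, and Junb a CRE half-site at -106 and TATAAA at 1. Egr2 carried none of the 6. Windows of 8 members were matched by symbol (those of Fosl1 and Egr1 were not analysed here). Of these 8, 4 held the CRE half-site, against 20.8% of 32817 promoter windows of the same length. The Egr site was held by 2 (5.56% of windows) and TATAAA by 2 (13.6%). None held the AP-1 site (7.81%), the full CRE (1.79%) or the CArG box (1.63%). Sites more than 250 bases before the start, and variants that depart from these letters, were not searched. These absences therefore hold only for the windows and letters searched, and do not show that the genes lack such elements. No marked motifs overlapped in these windows; a match is a run of letters and not a shown binding site, and the half-site and TATAAA were added to the search after the other 4 motifs had been counted.

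Compared per length, in TPM (transcripts scaled to a fixed sum), Fos was the most abundant member in every library and ranked 11th, 10th and 15th of all genes in PRC1 i2KO replicates 1, 2 and 3 and 8th and 12th in Control replicates 1 and 3. The 10 members together held 2.03%, 2.07% and 1.61% of all TPM in PRC1 i2KO and 2.77% and 1.63% in Control, so the groups overlapped. In PRC1 i2KO the mean levels ran from Fos (5473 ± 695 TPM, SD, n = 3) through Fosb, Egr1, Junb, Atf3, Jun and Jund (1123 ± 62.9 TPM) to Egr2 (299.8 ± 82.4 TPM), Fosl1 and Fosl2 (140.7 ± 25.5 TPM). Neighbours in this order overlapped in their libraries for Fosb and Egr1, Egr1 and Junb, Atf3 and Jun, Egr2 and Fosl1, and Fosl1 and Fosl2. In Control the order was Fos (6918 ± 2358 TPM, SD, n = 2), Fosb, Egr1, Jun, Atf3, Junb, Jund, Fosl1, Fosl2 (79.7 ± 5.17 TPM) and Egr2 (55.0 ± 35.2 TPM). There all neighbours overlapped except Jund and Fosl1, between which the levels were far apart. Junb and Egr2 thus each stood 2 places higher in the order of PRC1 i2KO than in that of Control. These overlaps compare levels across libraries, and within single libraries more of the order held. Both controls kept Fos, Fosb, Egr1 and Jun in this order and Fosl2 above Egr2, but differed in the order of Atf3, Junb and Jund and of Fosl1 and Fosl2. Every PRC1 i2KO library kept Fosb, Egr1 and Junb, and Egr2, Fosl1 and Fosl2, in this order, whereas Atf3 and Jun changed places.

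**Figure D1:**
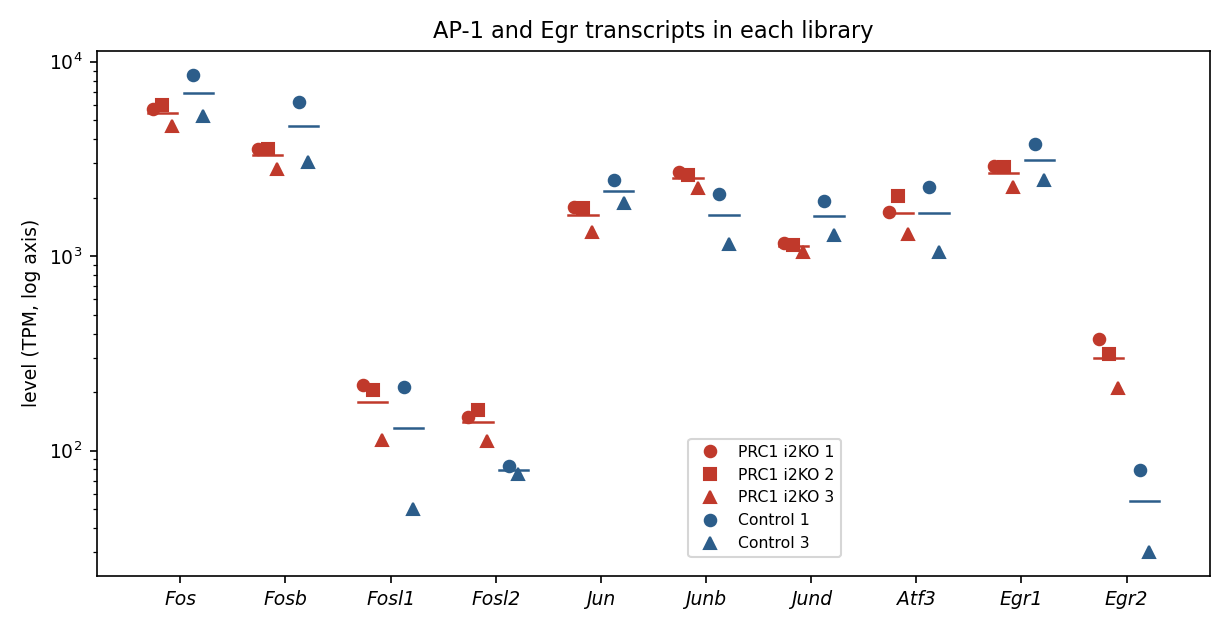
Level of each member in TPM (log axis) in the 3 PRC1 i2KO libraries (red) and the 2 Control libraries (blue); lines are group means. Egr2, Fosl2 and Junb are the members whose red points all lie above both blue points.

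Between groups, 2 of the 10 members rose in PRC1 i2KO, Egr2 and Fosl2, none fell and 8 did not pass (quasi-likelihood test of edgeR, adjusted p below 0.05). Over all 15665 tested genes 33.9% were called, 18.8% higher and 15.1% lower, so the 20% of members that rose is near the background. By unadjusted p under 0.05, 3 members were higher and 0 lower, and DESeq2 called 3 higher and 0 lower. The libraries of the groups did not overlap for 3 members, Egr2, Fosl2 and Junb, against 59.5% of all tested genes. The median log2 fold change of the 10 members was 0.01, and that of all tested genes was -0.01.

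Among the Fos family, which supplies the partners of Jun proteins, Fos (ENSMUSG00000021250), the classical serum-induced member, measured 5937, 5957 and 4360 CPM in the PRC1 i2KO libraries 1, 2 and 3 and at 7738 and 4725 CPM in Control replicates 1 and 3 (the library order used from here on). The groups overlapped, Control replicate 1 being highest of all and PRC1 i2KO replicate 3 lowest (log2 fold change -0.20, SE 0.23, 95% interval -0.74 to 0.34, edgeR adjusted p = 0.552). Its close relative Fosb (ENSMUSG00000003545) stood at 7340, 7226 and 5350 CPM in PRC1 i2KO and at 10783 and 5506 CPM in Control. It too was highest in Control replicate 1 and did not pass (log2 fold change -0.29, SE 0.30, 95% interval -1.03 to 0.44, edgeR adjusted p = 0.509). Both intervals span changes in either direction.

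Fosl1 and Fosl2 encode Fra-1 and Fra-2, Fos proteins that lack the strong activation domain of Fos. Fosl2 (ENSMUSG00000029135) stood at 507, 510.5 and 363 CPM in PRC1 i2KO and at 289.6 and 259.6 CPM in Control, so that every PRC1 i2KO library was above both controls. It rose 1.68-fold (log2 fold change 0.75, SE 0.16, edgeR adjusted p = 0.00575), and without Control replicate 3 the log2 fold change was 0.67 and the call was lost (adjusted p = 0.0567). Fosl1 (ENSMUSG00000024912) stood at 198, 206 and 114 CPM in PRC1 i2KO and at 179 and 48.3 CPM in Control. The controls lay 3.72-fold apart, wider than the fitted difference between groups (log2 fold change 0.62, SE 0.72, 95% interval -1.47 to 2.71, edgeR adjusted p = 0.58). Without Control replicate 1 Fosl1 was called higher (1.84, adjusted p = 0.0429), and without Control replicate 3 its log2 fold change was -0.06.

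In the Jun family, Jun (ENSMUSG00000052684), the founding member and a strong activator, stood at 3549.7, 3462 and 2518 CPM in PRC1 i2KO and at 4294 and 3243 CPM in Control. The groups overlapped (log2 fold change -0.25, SE 0.18, 95% interval -0.65 to 0.16, edgeR adjusted p = 0.331). Junb (ENSMUSG00000052837), which can restrain Jun and is known to limit keratinocyte proliferation in skin, stood at 2899, 2746 and 2286 CPM in PRC1 i2KO and at 1954 and 1066 CPM in Control. All 3 PRC1 i2KO libraries were above both controls, yet the 1.75-fold difference lay just outside the threshold (log2 fold change 0.81, SE 0.26, edgeR adjusted p = 0.0564). Junb was called by DESeq2 (adjusted p = 0.00372) and without Control replicate 1 (0.000489), and the adjusted p was between 0.000489 and 0.201 over 14 alternatives.

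Jund (ENSMUSG00000071076), the Jun gene with the steadiest expression in resting cells, stood at 1138, 1092 and 977 CPM in PRC1 i2KO and at 1633 and 1085 CPM in Control. Control replicate 1 stood apart from the other 4 libraries, and Jund did not pass (log2 fold change -0.35, SE 0.17, 95% interval -0.72 to 0.03, edgeR adjusted p = 0.146). It was called lower with no filter on low counts (adjusted p = 0.00788) and without Control replicate 3 (0.0134). Atf3 (ENSMUSG00000026628), a stress-induced zipper protein that pairs with Jun proteins, stood at 1686, 1711 and 1024 CPM in PRC1 i2KO and at 1913 and 915 CPM in Control. Its group means were close and its libraries spread widely (log2 fold change 0.06, SE 0.40, 95% interval -0.99 to 1.11, edgeR adjusted p = 0.929). Jun, Jund and Fosl1 had fractional read estimates in 4, 4 and 5 libraries, which shows that some of their reads were shared with other genes.

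Egr1 (ENSMUSG00000038418), the most readily induced Egr gene, stood at 6183, 6144 and 4591 CPM in PRC1 i2KO and at 7091 and 4559.6 CPM in Control. The groups overlapped nearly end to end (log2 fold change -0.05, SE 0.21, 95% interval -0.53 to 0.44, edgeR adjusted p = 0.891). Egr2 (ENSMUSG00000037868), also called Krox20 and known for its part in hindbrain, myelin and hair-lineage cells, stood at 465, 424 and 241 CPM in PRC1 i2KO and at 91.4 and 34.6 CPM in Control. It rose 6.08-fold (log2 fold change 2.60, SE 0.62, 95% interval 0.86 to 4.35, edgeR adjusted p = 0.0446), and its lowest PRC1 i2KO library lay well above the higher control. The call was lost with any 1 library left out other than Control replicate 1 (adjusted p from 0.0514 to 0.0977) and with no filter on low counts (0.112), while the log2 fold change stayed between 2.04 and 3.44.

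**Figure D2:**
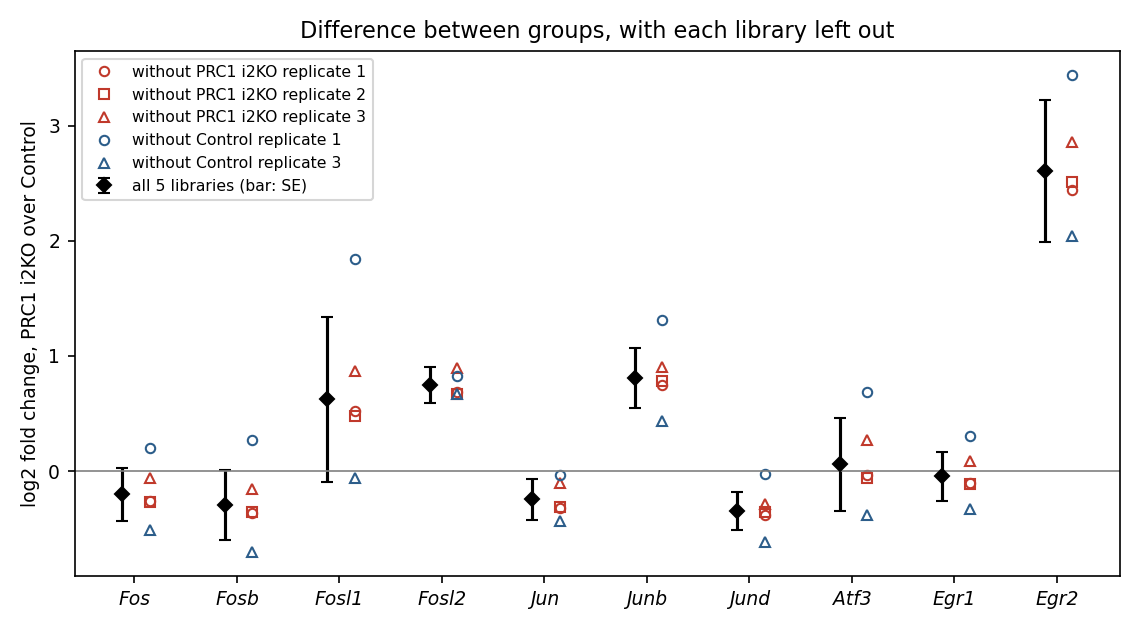
Fitted log2 fold change (PRC1 i2KO over Control) of each member with all 5 libraries (black, bar is the SE) and with each library left out in turn (open points). Egr2, Fosl2 and Junb are above 0 in every fit shown; Fos, Fosb, Fosl1, Atf3 and Egr1 change sign in at least 1.

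With single libraries left out, the number of members that rose ran from 0 (without Control replicate 3) to 4 (without Control replicate 1: Fosl1, Fosl2, Junb and Egr2), and 2 members (Fosb and Jund) fell in the absence of Control replicate 3 and 0 in the other 4 such fits. In those fits the remaining single control was assumed to vary like the PRC1 i2KO libraries, and the count differed with the control that was kept. The background in each setting was read beside these counts. Of all tested genes, 14.1% were higher and 9.74% lower without Control replicate 1, and 12.3% higher and 8.51% lower without Control replicate 3. With PRC1 i2KO replicate 1, 2 or 3 left out, where 1 member rose in each case, 15.6%, 14.8% and 20.9% of genes were higher and 11.1%, 10.9% and 18.6% lower. In DESeq2 20.4% were higher and 15.8% lower, with the replicate number as a block (3 members higher) 16.1% and 12.1%, with library totals (3 members higher) 19.6% and 14.0%, and with DESeq2 size factors in edgeR (2 members higher) 18.9% and 15.0%. Filters changed this background to 14.0% higher and 11.7% lower with none (2 members higher, 1 lower) and to 21.7% and 19.3% with a mean of at least 5 CPM (2 members higher). On deposited TPM, 2 members rose in each fit, and 11.9% of genes were higher and 14.6% lower with a pseudocount of 1, 12.0% and 13.9% with 0.1, and 6.14% and 6.89% unfiltered.

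The 2 controls differed in the same direction for every member. All 10 were higher in Control replicate 1 than in Control replicate 3, by 1.12-fold (Fosl2) to 3.72-fold (Fosl1) with a median of 1.73-fold, against 47.8% of all tested genes that were higher in replicate 1. Within PRC1 i2KO all 10 were lowest in replicate 3, as were 34.9% of all tested genes; the median ratio of replicate 3 to the mean of replicates 1 and 2 was 0.726. This held for the wider immediate early programme too, a comparison made after the values of the members were seen. Of 37 other immediate early genes, 37 were higher in Control replicate 1 (median 1.81-fold) and 35 were lowest in PRC1 i2KO replicate 3. Of 14 heat shock genes, 12 were higher in Control replicate 1 and 12 were lowest in PRC1 i2KO replicate 3. Of the 24 kinases of the MAP kinase cascades, 13 were higher in Control replicate 1 (median 1.04-fold). Control replicate 1 was the shallowest library and Control replicate 3 the deepest, while PRC1 i2KO replicate 3 lay between the other 2 of its group, and mitochondrial genes took 2.95%, 2.91% and 2.33% of reads in PRC1 i2KO and 2.12% and 2.47% in Control. PRC1 i2KO replicate 3 was also lowest of its group for 6 of 6 markers of cycling cells, and its levels of the bulge markers Cd34 and Krt24 were 3.19-fold and 3.30-fold the mean of replicates 1 and 2. The part of depth, mitochondrial share or cell make-up in this spread was not tested.

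**Figure D3:**
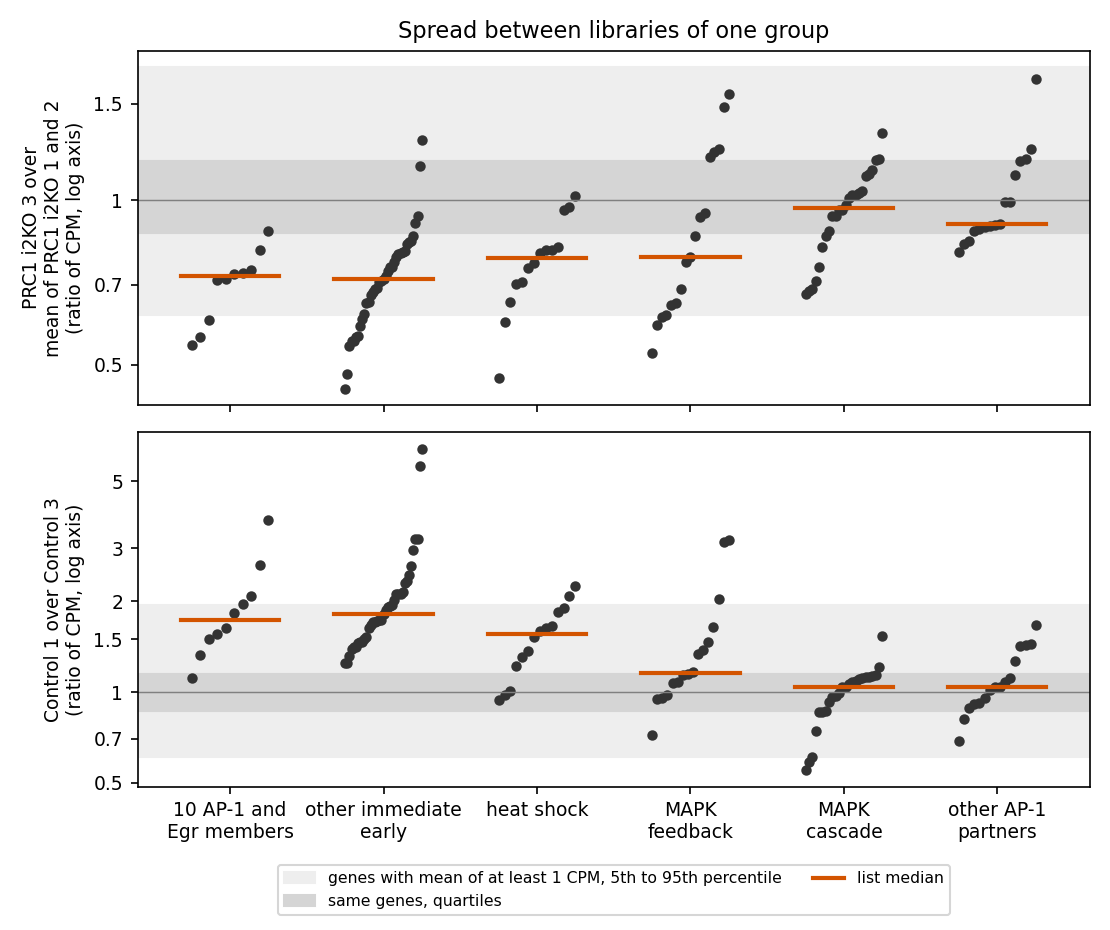
Each point is 1 gene of a list; the vertical log axes give PRC1 i2KO replicate 3 over the mean of replicates 1 and 2 (top) and Control replicate 1 over replicate 3 (bottom), with grey bands for the 13551 tested genes whose mean reached 1 CPM. All 10 members and 35 of the 37 other immediate early genes lie below 1 at the top (medians 0.726 and 0.717; Ccn2 at 1.29 and Phlda1 at 1.15 lie above), and both lists lie above 1 at the bottom (medians 1.73 and 1.81). Dusp2, of the MAP kinase feedback list, had no read in Control replicate 3 and is not drawn at the bottom.

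Because the members moved together between libraries, their make-up within each library was also described, a choice made after their values were seen. Fos family transcripts made up 56.7%, 56.9% and 56.6% of the summed TPM of the 8 AP-1 genes in PRC1 i2KO and 63.3% and 61.2% in Control. The Junb share was 16.0%, 15.0% and 16.4% in PRC1 i2KO and 8.79% and 8.33% in Control, nearly constant within each group although the level of Junb varied. The Fosl2 share was 0.876%, 0.922% and 0.821% in PRC1 i2KO and 0.349% and 0.551% in Control. Shares of Fos, Fosb and Jund were lower in every PRC1 i2KO library than in both controls, that of Atf3 was higher in each, and those of Jun and Fosl1 overlapped. The shares of a library sum to a fixed total, so a larger Junb share by itself lowers the others. The lower shares of Fos, Fosb, Jund and the Fos family are therefore no result separate from that of Junb.

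**Figure D4:**
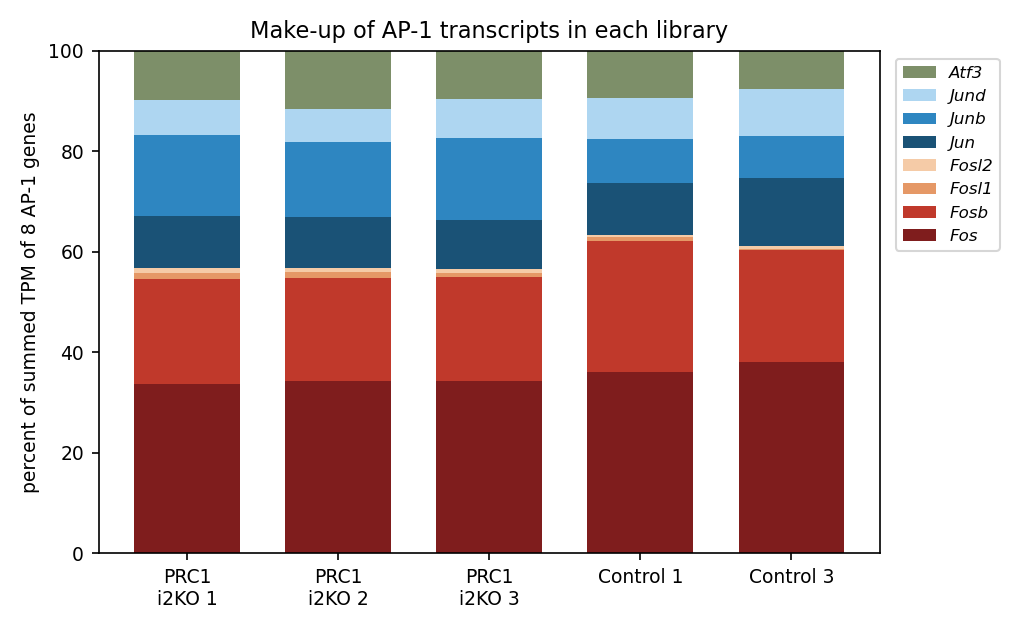
Share of each gene in the summed TPM of the 8 AP-1 genes, in percent, for each library (PRC1 i2KO left, Control right). The Junb block takes 15.0% to 16.4% in PRC1 i2KO and 8.33% to 8.79% in Control.

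Ratios between members within a library were also taken, which removes a common shift only as far as both genes share it. Control replicate 1 over replicate 3 was 2.64 for Egr2 and 1.56 for Egr1, 1.83 for Junb and 1.32 for Jun, and 1.12 for Fosl2 and 1.64 for Fos. Egr2, Junb and Fosl2 had already been seen to be higher, so their ratios are a description and no separate support. The Egr2 to Egr1 ratio of TPM was 0.129, 0.109 and 0.0928 in PRC1 i2KO and 0.021 and 0.0123 in Control, a 6.61-fold difference of the means. The Junb to Jun ratio was 1.53, 1.49 and 1.69 in PRC1 i2KO and 0.85 and 0.615 in Control (2.14-fold), and the Fosl2 to Fos ratio was 0.026, 0.0268 and 0.0239 in PRC1 i2KO and 0.00971 and 0.0145 in Control (2.11-fold). The Atf3 to Fos ratio was 0.293, 0.338 and 0.279 in PRC1 i2KO and 0.263 and 0.201 in Control (1.31-fold). The Egr1 to Fos ratio differed 1.08-fold, at 0.506, 0.481 and 0.485 in PRC1 i2KO and 0.442 and 0.467 in Control. Neither overlapped between groups, whereas the Fosb to Fos, Fosl1 to Fos, Jun to Fos and Jund to Jun ratios did. How often ratios of other genes fail to overlap was not counted, and by level 59.5% of all tested genes did not overlap. With 3 against 2 libraries an exact two-sided permutation test cannot give a p below 0.2, which is the value each of the non-overlapping ratios had.

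**Figure D5:**
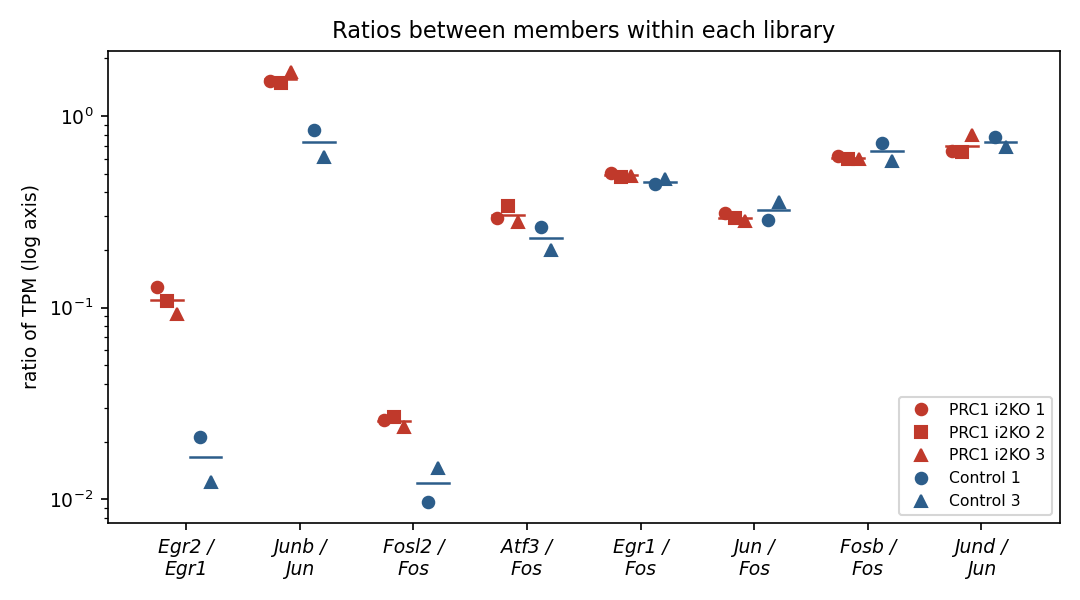
Ratio of TPM of 1 member to another (log axis) in each PRC1 i2KO library (red) and Control library (blue), with group means as lines. Egr2 to Egr1, Junb to Jun and Fosl2 to Fos separate the groups by 6.61-fold, 2.14-fold and 2.11-fold. Atf3 to Fos (1.31-fold) and Egr1 to Fos (1.08-fold) also do not overlap, whereas Jun to Fos does.

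The genes nearest to Fos by profile were sought by the Euclidean distance between log2 CPM values centred over the 5 libraries. Outside the members they were Flrt3 (0.103), Apex2 (0.105) and Arl13b (0.119), and for Egr1 they were Aga (0.0901), Steap4 (0.0924) and Flrt3 (0.123). Among the members, Egr1 (0.172), Fosb (0.194) and Jun (0.235) were nearest to Fos, and Egr2 was farthest (3.19). Flrt3, for example, stood at 176, 185 and 136 CPM in PRC1 i2KO and at 222 and 145 CPM in Control. Over 5 libraries many profiles lie this close, so the distance is a description only.

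Other immediate early genes went both ways. Among the 37, 8 rose, 6 fell and 23 missed the threshold, with a median log2 fold change of 0.45 (over all tested genes 18.8% rose, 15.1% fell and the median was -0.01). Ccn2 and Ccn1, which encode secreted matrix-associated proteins induced through SRF and YAP, fell 9.33-fold and 5.30-fold. Ccn2 stood at 258, 268 and 338 CPM in PRC1 i2KO and at 3389 and 1989.6 CPM in Control (edgeR adjusted p = 0.00013), and the call of Ccn1 (0.00106) was lost without PRC1 i2KO replicate 3 (0.0513). Ier5, a nuclear immediate early gene, rose 2.98-fold (edgeR adjusted p = 0.000495), and Phlda1 rose 2.37-fold (0.000297). Leaving out Control replicate 1 gave 20 that rose, leaving out Control replicate 3 gave 5, as did leaving out either of PRC1 i2KO replicates 1 and 2, and leaving out PRC1 i2KO replicate 3 gave 2 that fell. With the replicate number of the titles as a block, 17 rose. The shares of all tested genes in each of these fits are those given above for the members.

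The factors that bind the serum response element in front of many immediate early genes, together with the Egr co-repressors, numbered 8, of which 3 rose and 1 fell. These were 37.5% and 12.5% of the list, against 18.8% and 15.1% of all tested genes. Srf itself stood at 167, 151 and 129 CPM in PRC1 i2KO and at 105 and 85.8 CPM in Control, a 1.57-fold rise (log2 fold change 0.65, edgeR adjusted p = 0.00559). Without Control replicate 3 its log2 fold change was 0.51 and the call was lost (0.0686). Elk4, an Ets partner of Srf, rose 1.39-fold (edgeR adjusted p = 0.00681, 0.0577 without Control replicate 1), whereas in the fit of TPM its log2 fold change was 0.23 (limma adjusted p = 0.384). Nab2, a co-repressor of Egr proteins, rose 1.37-fold (edgeR adjusted p = 0.00938, 0.0769 without Control replicate 3), whereas in the fit of TPM its log2 fold change was 0.25 (limma adjusted p = 0.219). Mrtfa, an actin-regulated co-activator of Srf, fell 1.85-fold (edgeR adjusted p = 0.000593). On the deposited TPM 1 of these 8 rose and 2 fell (limma, log2(TPM + 1)), and 1 rose without Control replicate 3.

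Of 24 kinases of the ERK, JNK and p38 cascades, 5 rose, 3 fell and 16 did not pass (median log2 fold change 0.07). The 20.8% that rose and 12.5% that fell are near the 18.8% and 15.1% of all tested genes. Mapk11, p38β, rose 7.14-fold and stood at 21.0, 21.7 and 21.8 CPM in PRC1 i2KO and at 3.20 and 2.89 CPM in Control (edgeR adjusted p = 1.69e-05). Map2k3, an activator of p38, rose 1.58-fold, a call that was not made on the deposited TPM (limma adjusted p = 0.0968). Map3k1, a kinase upstream of JNK, fell 1.93-fold, and Rps6ka2, a ribosomal S6 kinase downstream of ERK, fell 2.91-fold. On the deposited TPM 1 of the kinases rose, and 3 rose with Control replicate 1 or PRC1 i2KO replicate 2 left out.

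Of 17 phosphatases and inhibitors that MAP kinase signalling induces and that damp it, 3 rose, 4 fell and 10 did not pass (median log2 fold change 0.18). Of the list 17.6% rose and 23.5% fell, against 18.8% and 15.1% of all tested genes. Dusp4, a nuclear phosphatase of ERK and JNK, rose 5.49-fold and stood at 17.1, 19.7 and 15.8 CPM in PRC1 i2KO and at 3.82 and 2.77 CPM in Control (edgeR adjusted p = 0.00012). Dusp8, a JNK and p38 phosphatase, fell 3.38-fold, Dusp14, another MAP kinase phosphatase, fell 3.07-fold, and Spred3, an inhibitor of Ras and ERK signalling, fell 3.39-fold. Without Control replicate 1, 5 of the list rose.

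Of 19 other zipper genes whose proteins pair or compete with Jun and Fos proteins, 16 were tested and Batf, Batf2 and Batf3 had too few reads. Among the 16, 3 rose, 4 fell and 9 did not pass (median log2 fold change -0.05). Of the tested ones 18.8% rose and 25% fell, against 18.8% and 15.1% of all tested genes. Maf fell 6.0-fold, to 49.7, 52.6 and 61.0 CPM in PRC1 i2KO, against 319.5 and 334 CPM in Control (edgeR adjusted p = 6.4e-07). Atf5 rose 2.87-fold and Bach1, a repressor at antioxidant genes, fell 1.55-fold. These calls of Maf, Atf5 and Bach1 were kept in all 14 alternatives.

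Heat shock genes, which warm dissociation of tissue is also known to induce, were 14, of which 3 rose, 2 fell and 9 did not pass (median log2 fold change 0.31). The 21.4% that rose and 14.3% that fell are near the 18.8% and 15.1% of all tested genes. Hspd1 and Hspe1, the mitochondrial chaperonin pair, rose 2.71-fold and 2.39-fold, Hsp90ab1, a constitutive chaperone, rose 1.41-fold, and Hspb1, a small heat shock protein, fell 1.39-fold. The calls of Hsp90ab1 (adjusted p = 0.0550 without PRC1 i2KO replicate 2) and Hspb1 (0.187 without Control replicate 1) depended on single libraries. The inducible genes Hspa1a and Hspa1b, named after their values were seen, did not pass. Hspa1a stood at 725, 641 and 323 CPM in PRC1 i2KO and at 538 and 239.6 CPM in Control. The number of heat shock genes that rose was 6 without Control replicate 1 and with the replicate block, and the number that fell was between 0 and 3 over the alternatives.

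Markers of other cells were read beside these results. Summed over their lists, infundibulum and basal epidermis markers stood at 15701 to 18422 CPM in PRC1 i2KO and 17061 and 19849 CPM in Control. This sum covers opposite changes, shown by 2 genes named after their values were seen. Mean Krt5 was 7398 CPM in PRC1 i2KO and 15042 CPM in Control, and mean Krt79 was 3440 CPM and 53.2 CPM. Suprabasal markers stood at 2789 to 3985 CPM in PRC1 i2KO and at 1275 and 1289 CPM in Control. Immune markers stood at 95.1 to 136.5 CPM in PRC1 i2KO and 31.2 and 38.9 CPM in Control, with Cd3e, Cd3g, Lyz2 and Trdc too low to test and Lyz2 at 0 in all libraries. Most of the immune sum lay in Cd74 and H2-Ab1, named after their values were seen. Their means were 81.3 and 30.6 CPM in PRC1 i2KO and 20.9 and 10.6 CPM in Control. The 4 other tested immune markers, Ptprc, Cd207, Tyrobp and Fcer1g, were not called. Mean Ptprc was 0.565 CPM in PRC1 i2KO and 0.559 CPM in Control. Fibroblast markers stood at 33.2 to 33.3 CPM in PRC1 i2KO and 72.4 and 73.8 CPM in Control, melanocyte markers at 25.3 to 29.1 CPM and 5.10 and 7.26 CPM, and endothelial and mural markers at 4.66 to 6.02 CPM and 0.964 and 2.58 CPM. Of the tested markers, 10 of 10 suprabasal, 8 of 8 sebaceous, 6 of 9 infundibular and basal, 2 of 6 immune, 2 of 4 melanocyte, 1 of 4 fibroblast and 1 of 4 endothelial and mural genes rose, and 3 of 4 fibroblast genes and 1 of 9 infundibular and basal genes fell. Over all tested genes 18.8% rose and 15.1% fell. The part of a changed cell make-up in the levels of Egr2, Fosl2 and Junb was not tested.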

How the data were processed

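Polyadenylated RNA of 50000 sorted cells per sample was measured (3 PRC1 i2KO and 2 Control libraries, grouped by title). The authors deposited expected counts and TPM per gene and library, per the file headers; build mm39, RSEM 1.3.3, STAR 2.7.9a and DESeq2 1.38.2 are listed, without roles, per the submitters' processing notes. Strandedness: not given in the sources used here, like the annotation. TPM is scaled to length and keeps no depth. Expected counts share reads between similar or overlapping genes. The control called replicate 3 has another number in its description.

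Counts were rounded, filtered with filterByExpr, scaled with TMM (factors 0.983 to 1.02) and tested in R 4.3.3 with edgeR 4.0.16 (robust quasi-likelihood F test, genotype as the only term, all 5 libraries). Benjamini-Hochberg adjustment ran over 15665 genes, with calls below 0.05. SE is the log2 fold change divided by the square root of F, and 95% intervals use the test's degrees of freedom. Alternatives used DESeq2 1.42.0 and limma 3.58.1. On simulated data the fit recovered planted directions. False calls exceeded the nominal share in both settings tried, and by far more with dispersions as scattered as the gene-wise estimates, so calls near the threshold are less firm. All pairs of libraries of 1 group differed by more than sampling noise (chi-square over its degrees of freedom 10.1 to 41.8). The members, gene lists and tests were chosen with earlier results of these data known. Named genes were all members, up to 4 called genes of each of 6 pathway lists with the smallest adjusted p, and the 3 profiles nearest to Fos and to Egr1; others are marked, and 1 gene that the rule names is not reported here. RefSeq promoters were matched by symbol.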

Additional observations from a re-analysis of the deposited data

How the results depend on the processing

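The number of members that rose (2 of 10) was 2 or 3 in the 9 alternatives that kept all 5 libraries and ran from 0 to 4 with 1 library left out. The number that fell (0) was 1 with no filter on low counts (Jund) and from 0 to 2 with 1 library left out. All genes called (5310) numbered 2991 on unfiltered TPM and from 3322 to 5856 with 1 library left out. On the deposited TPM 45.0% of calls were higher in place of 55.3%, and the median gene stood at -0.148 on the log2 scale, so member values there are read against that shift. The titles of both groups share the numbers 1 and 3; deviations of same-numbered libraries correlated at 0.0737 and 0.115, and the numbers, which the labels do not explain, were not taken to pair the samples. All 10 members were higher in replicate 1 than in replicate 3 in both groups, and whether same-numbered libraries share a source was not tested. With the replicate block 3 members rose (Junb added, edgeR adjusted p = 0.00306, with Egr2 at 4.5e-06) of 4421 genes called, and Atf3 turned to -0.010. PRC1 i2KO replicate 2 has no control of its number, so the group difference in that fit rests on the libraries numbered 1 and 3.

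Of 140 alternative values of the members, 116 kept direction and call, 6 lost and 9 gained the call, and 9 changed sign. With 1 library left out, log2 fold changes ran from -0.52 to 0.20 for Fos, -0.70 to 0.27 for Fosb, -0.056 to 1.84 for Fosl1, -0.38 to 0.69 for Atf3 and -0.33 to 0.31 for Egr1. The lowest were without Control replicate 3 and the highest without Control replicate 1. The same held for Hspa1b (-0.65 to 0.23). It also held for Flrt3 (-0.42 to 0.19), Apex2 (-0.53 to 0.16), Arl13b (-0.50 to 0.085), Aga (-0.34 to 0.34) and Steap4 (-0.41 to 0.28). These were chosen for profiles near Fos or Egr1 over the same libraries, so their likeness follows from the choice and is no separate support. Apex2 also turned on TPM (0.093 with or without a filter, 0.13 with a pseudocount of 0.1) and Aga with library totals (0.016). The cause was not tested. Every member had at least 743 reads in each library, and the comparisons rest on 3 libraries against 2.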

Other observations

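The remaining Egr genes, named after their values were seen, lay on the same side as Egr2. Egr3 stood at 365, 375 and 204 CPM in PRC1 i2KO and at 160 and 28.4 CPM in Control, so the groups did not overlap, but the controls lay so far apart that it did not pass (log2 fold change 1.77, SE 0.96, edgeR adjusted p = 0.269; from 0.013 to 0.407 over the alternatives). Leaving out Control replicate 1 gave a log2 fold change of 3.47, and leaving out Control replicate 3 gave 0.97. Egr4 was low, at 12.2, 11.2 and 5.63 CPM in PRC1 i2KO and 1.60 and 0.249 CPM in Control, and rose (log2 fold change 3.79, SE 0.79, edgeR adjusted p = 0.00901, higher in 3 of 3 PRC1 i2KO libraries than in both controls; adjusted p up to 0.0302 over the alternatives). With the same libraries left out its log2 fold change was 5.24 and 2.58. Socs3, a feedback inhibitor of cytokine signalling, stood at 1410, 1340 and 980 CPM in PRC1 i2KO and at 467 and 286 CPM in Control, and rose (log2 fold change 1.73, edgeR adjusted p = 0.0033). Klf4, a factor of keratinocyte differentiation, stood at 1474, 1479 and 1272 CPM in PRC1 i2KO and at 4145 and 2122 CPM in Control, and fell (log2 fold change -1.15, edgeR adjusted p = 0.0209), a call that was lost without PRC1 i2KO replicate 3 (0.197) and with no filter on low counts (0.0614).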
